A study of Mus musculus and synthetic RNA with 74 samples.

Results

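In the in vitro methylation experiment with human METTL16, 4724 of the 36835 predicted RNA structures folded into a single hairpin whose opening strand holds the methylated adenosine as a paired base. The rule that picks them uses the RNAfold prediction and no measured value. The structure had to have exactly 1 hairpin loop, position 15 had to be an opening bracket, and neither position 16 nor position 17 could be a 1-nt bulge, that is, a single unpaired nucleotide whose neighbours pair with adjacent partners. In dot bracket notation a dot is an unpaired nucleotide and each opening bracket pairs with a later closing bracket. Full-length recombinant METTL16 had methylated a pool of synthetic 30-nt RNAs that carry a fixed nonamer between randomized flanks. From each of 2 reactions, numbered 11 and 12, a part was kept as input and the rest was enriched with an antibody against m6A (m6A-IP), which gave 2 input libraries (input 11 and input 12) and 2 m6A-IP libraries (IP 11 and IP 12). No library from a reaction without METTL16 was used here, and each value of enrichment compares m6A-IP with input RNA. The embryo transcriptomes of the same study were not used here.

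METTL16 is a methyltransferase that transfers a methyl group from S-adenosylmethionine to the N6 position of adenosine (m6A). Its known substrates are the U6 spliceosomal RNA and hairpins in the 3′ untranslated region of MAT2A, the mRNA of the enzyme that makes S-adenosylmethionine. Both substrates share a nonamer, and in the MAT2A hairpins this nonamer lies around the loop of a stem, so the base pairing around the adenosine is part of what the enzyme meets. A member differs from that arrangement in that its adenosine is predicted to be paired with a uridine of the 3′ flank.

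The fixed part and the pairing partners are shown because they set which letters each member must carry. The deposited table gives structures and not the RNAs, so only the nonamer and the letters forced by A-U and C-G pairing are written, and n stands for the rest, including partners of G and U, which RNAfold lets pair in more than 1 way. Capitals mark the adenosine at position 15 and the uridine predicted to pair with it.
designed RNA: nnnnnnnnnnnuacAgagaannnnnnnnnn
1 pair outside and 1 pair inside, .............(((......))).....: nnnnnnnnnnnuacAgagaannnUgnnnnn
1 pair outside and 2 pairs inside, .............((((......))))...: nnnnnnnnnnnuacAgagaannnunUgnnn
no pair outside and 3 pairs inside, ..............((((......))))..: nnnnnnnnnnnuacAgagaannnnnunUnn
other-strand bulge beside the partner, ............(((((((...))))).)): nnnnnnnnnnnuacAgagaannununUngu
own-strand bulge beside position 15, ........(((((.((....)))))))...: nnnnnnnnnnnuacAgagaanUunnnnnnn
uninterrupted stem with 5 pairs outside, .........((((((((.....)))))))): nnnnnnnnnnnuacAgagaannunUgunnn
The nonamer fills positions 12 to 20. Outside means toward the free ends of the RNA and inside means toward the hairpin loop. The own strand is the one with position 15 and the other strand is the one with its partner.

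The values are reads per structure divided by the authors' size factor of the library, here called normalized reads. All of them were whole multiples of the value of 1 read within a tolerance of 0.01 (100% of values), which gave between 18106811 and 22118622 reads for 3 of the libraries but 1154715 reads for IP 12. The median member had 139 reads in input 11, 123 in input 12, 168 in IP 11 and 9 in IP 12, in which 68 members had no read. Single structures were tested with limma on log2 of the normalized value plus 5, m6A-IP against input over all 36835 structures, and a Benjamini-Hochberg adjusted p of at most 0.1 was called enriched or depleted. The 2 reactions are the only replicates, so these p-values are set against the spread between them, which may be technical. That spread includes a difference in level between the reactions in the normalized values. The median log2 ratio of m6A-IP to input over all structures was -0.11 in reaction 11 and -0.40 in reaction 12. Over all structures the median log2 fold change was -0.27 (-0.06 when libraries were scaled to their totals), and class medians are therefore given as differences from it, the relative log2 fold change. For classes of members, the share of all reads was also compared between m6A-IP and input within each reaction. No p is given for classes, since 2 libraries against 2 cannot go below p = 0.333 in an exact permutation test.

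As a group the members were modestly over-represented after m6A-IP, and single members went in both directions. They held 16.3% of the reads in each input library and 20.1% and 19.7% of those in IP 11 and IP 12, a log2 ratio of shares of 0.29 and 0.27. Their median log2 fold change was 0.19 above that of all structures, and the middle 50% of their log2 fold changes ran from -0.51 to 0.35. By limma's adjusted p, 653 members were enriched (13.8%, against 12.5% of all structures) and 729 were depleted (15.4%, against 27.2% of all structures). In this fit the share of enriched members was close to the background, while that of depleted members was lower. With libraries scaled to their totals, 1392 members were enriched and 688 depleted, so the share of enriched among all called members went from 47.3% to 66.9%, and edgeR's quasi-likelihood test on the recovered reads called 2221 enriched and 1007 depleted. The enriched share of members was then above that of all structures, 29.5% against 22.5% with library totals and 47.0% against 35.7% with edgeR, and the depleted share was below it, 14.6% against 24.8% and 21.3% against 35.6%. The numbers rested on single libraries. They fell when either input was left out and rose when either m6A-IP library was left out. The counts over all structures moved in the same way. The relative median stayed between 0.18 and 0.21 in these 4 fits. Single hairpins with position 15 on the closing strand (2348 structures) had a relative median of -0.10, and the 23 hairpins with a 1-nt bulge at position 16 or 17 had 1.19, with 19 enriched and 0 depleted. Neither difference from the members was tested.

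Over all members, enrichment was highest where position 15 lay at or near the outer end of the stem, and beyond 2 outside pairs it fell as pairs were added. With no pair outside, the relative median was 0.88 (22 members), with 1 pair 0.75 (55), with 2 pairs 0.82 (118) and with 3 pairs 0.54 (468). It went on to 0.38 with 4 pairs, 0.26 with 5, 0.08 with 6, -0.12 with 7 and -0.38 with 8 (903, 1212, 1102, 637 and 188 members), and was -0.37 in the 19 members with 9. The first members of this series were thus above the typical structure of the table and the last ones below it. Of the 22 members in which the A-U pair of position 15 was the outermost pair, 13 were enriched (59.1%) and 2 depleted (9.09%). Of the 188 members with 8 pairs outside, 0 were enriched and 70 depleted (37.2%). Over all structures 12.5% were enriched and 27.2% depleted. The counts of calls in both classes changed with the library left out, as they did over all structures. In these fits the relative median ranged from 0.87 to 0.93 in the first class and from -0.42 to -0.35 in the second. In read shares, the members with position 15 in the outermost pair had log2 ratios of 0.96 and 0.94 in reactions 11 and 12. Against the members with at least 2 pairs outside (4647), which had 0.20 and 0.16, the difference was 0.77 ± 0.01 (SD over 2 reactions), or 1.71-fold. These classes also differ in the pairs inside, since 18 of the 22 members have 3 or more and none has fewer than 2. At a matched number of inside pairs the order was not the same. With 2 pairs inside the relative median was -0.24 for position 15 in the outermost pair (4 members), against 0.59 with 2 pairs outside (49) and 0.16 with 3 (167). With 3 pairs inside it was 0.92 (7), against 1.17 with 2 pairs outside (34) and 0.97 with 3 (77).

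A hairpin with position 15 in its outermost pair shows this in single values. The most abundant of them, ..............((((........)))), had 9704 and 10017 normalized reads in the inputs of reactions 11 and 12 and 22599 and 20606 after m6A-IP. Both m6A-IP values were above both inputs. Its log2 fold change was 1.13 (SE 0.19, limma adjusted p = 0.017, and 0.349 and 0.327 in the fits without input 11 and input 12).

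The number of pairs between position 15 and the loop had no steady relation to enrichment, because members with 2 pairs inside stood below those with 1 and those with 3. Here the chain of the nonamer is fixed. In a stem without interruption on this side, the pair that closes the loop contains A15 with no pair inside, G16 with 1, A17 with 2, G18 with 3, A19 with 4 and A20 with 5. The relative median was 0.17 (1479 members) when the pair of position 15 itself closed the loop, 0.24 with 1 pair inside (2000), -0.01 with 2 (967), 0.80 with 3 (243), 1.18 with 4 (32) and 2.30 with 5 (3). The class with 2 pairs inside was also the one whose read share fell, with log2 ratios of -0.13 and -0.16 in reactions 11 and 12. They were 0.41 and 0.38 with 1 pair inside and 0.69 and 0.65 with 3. The dip was present at each fixed number of outside pairs from 1 to 5. With 3 pairs outside, for example, the relative median was 0.71 with 1 pair inside (161 members), 0.16 with 2 (167) and 0.97 with 3 (77), and with 5 pairs outside it was 0.38 (553), -0.04 (278) and 0.46 (32). Of the 967 members with 2 pairs inside, 88 were enriched (9.10%) and 256 depleted (26.5%), near the 12.5% and 27.2% of all structures. Of the 243 with 3 pairs inside, 112 were enriched (46.1%) and 4 depleted (1.65%). Fewer members of both classes were called enriched without input 11 or input 12, as over all structures. The relative medians of the classes ranged from -0.05 to 0.01 and from 0.75 to 0.81 over the fits that left out 1 library.

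The order of these classes did not come down to whether position 15 was near the loop. Members with position 15 in the pair that closes the loop had a lower read share ratio than those with at least 2 pairs inside (1245 members), by -0.12 ± 0.003 (SD over 2 reactions). The difference of the medians of these classes had the opposite sign, 0.011, so no order can be given for them.

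Values also differed by loop length within these classes, and loops of 4 nt were lowest. Over all members the relative median was -0.02 for loops of 4 nt (1627 members), 0.45 for 3 nt (561), 0.24 for 5 nt (1456), 0.32 for 6 nt (680) and 0.34 for 7 nt (243). With 1 pair inside, where a loop of 4 nt directly after that pair is made of the last letters of the nonamer, agaa, it was 0.02 for 4 nt (1166 members), against 0.40 for 5 nt (487) and 0.63 for 6 nt (244). With 2 pairs inside it was -0.29 for 4 nt (381), -0.23 for 5 nt (131), -0.16 for 6 nt (49) and 0.26 for 3 nt (393). With 3 pairs inside it was 0.58 for 4 nt (70), below 0.85 for 3 nt (146) and 0.87 for 5 nt (20). The dip at 2 pairs inside was therefore seen at loops of 4, 5 and 6 nt. In read shares, loops of 3 or 4 nt together were lower than loops of at least 6 nt by -0.41 ± 0.01 (SD over 2 reactions, 2188 and 1080 members). The difference of the medians was -0.19. Loops of 3 nt alone were not lower, with log2 ratios of 0.54 and 0.50 in reactions 11 and 12 against 0.50 and 0.47 for loops of at least 6 nt, whereas loops of 4 nt had -0.04 and -0.06.

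The 5 most abundant members carry the same short stem, 3 pairs from position 14 to position 16, and differ only in the loop. The hairpin with a loop of 6 nt, .............(((......)))....., had 36729 and 36233 normalized reads in the inputs of reactions 11 and 12 and 63457 and 51136 after m6A-IP. For the loop of 7 nt, .............(((.......)))...., the values were 30720 and 30658 in the inputs and 54253 and 43152 after m6A-IP. For the loop of 5 nt, .............(((.....)))......, they were 25664 and 25362 in the inputs and 43745 and 34225 after m6A-IP. In all of these the m6A-IP values were above both inputs, with log2 fold changes of 0.64, 0.66 and 0.60 (SE 0.25, 0.24 and 0.24). The shortest loop, in .............(((....)))......., had 29747 and 30075 normalized reads in the inputs and 37515 and 29706 after m6A-IP, so its groups overlapped, and its log2 fold change was 0.16. The longest, in .............(((........)))..., had 47637 and 47905 in the inputs and 67328 and 55156 after m6A-IP, with a log2 fold change of 0.35. Of these 5 hairpins, that with the loop of 7 nt passed the threshold (limma adjusted p = 0.093), and the others did not (0.102, 0.108, 0.322 and 0.630 for loops of 6, 5, 8 and 4 nt). The call was lost with the reaction as a replicate block (adjusted p = 0.293) and without input 11 or input 12 (0.675 and 0.682). With libraries scaled to their totals all 5 were called enriched.

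Sliding one hairpin along the RNA changes which letters are paired while the shape stays the same. The stem of 4 pairs with a loop of 6 nt has members at 4 starting positions. Starting at position 12, with 3 pairs outside and none inside, ...........((((......))))..... had 4005 and 4075 normalized reads in the inputs of reactions 11 and 12 and 3077 and 2315 after m6A-IP, a log2 fold change of -0.60. Starting at position 13, with 1 pair inside, ............((((......)))).... had 5080 and 5096 in the inputs and 8690 and 6453 after m6A-IP, a log2 fold change of 0.56. Starting at position 14, with 2 pairs inside, .............((((......))))... had 27776 and 27831 in the inputs and 20086 and 15310 after m6A-IP, a log2 fold change of -0.67. Starting at position 15, with 3 pairs inside, ..............((((......)))).. had 6138 and 6126 in the inputs and 13805 and 9932 after m6A-IP, a log2 fold change of 0.93. The m6A-IP values thus lay below both inputs at starting positions 12 and 14 and above them at 13 and 15. The SE was between 0.19 and 0.23 and limma's adjusted p was 0.069, 0.093, 0.080 and 0.033 in this order. The first 3 calls were lost with the reaction as a replicate block (0.103, 0.176 and 0.216, and 0.024 for the last), and all 4 were lost without input 11 (0.551, 0.630, 0.624 and 0.400) or input 12 (0.575, 0.633, 0.632 and 0.408).

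With other loops the sign did not always alternate. For the stem of 4 pairs with a loop of 5 nt the log2 fold changes at starting positions 12, 13, 14 and 15 were -0.68, 0.63, -0.69 and 0.65, so it alternated as for 6 nt. With a loop of 4 nt it did not, since the values were -0.22, -0.64 and 0.57 at starting positions 13, 14 and 15, and the first of these did not pass the threshold (limma adjusted p = 0.395) and was above 0 under other scaling. For the stem of 3 pairs with a loop of 6 nt they were -0.27 with no pair inside, 0.64 with 1 and -0.56 with 2. Within the members of these shapes, those with 2 pairs inside were depleted, at each of the 4 shapes. Their adjusted p was 0.080 to 0.094 by limma, 0.120 to 0.266 with the replicate block, and 0.583 to 0.669 without input 11 or input 12. The other 4 calls of this paragraph had an adjusted p of 0.059 to 0.097 by limma and 0.517 to 0.647 without input 11 or input 12, and those at starting position 15 were also lost with the replicate block (0.132 and 0.197).

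Over all members, longer stems were less enriched, and in the longest the direction turned. The relative median was 0.71 for stems of 4 pairs (102 members), 0.55 for 5 (424), 0.38 for 6 (935), 0.26 for 7 (1332), 0.06 for 8 (1209), -0.22 for 9 (592) and -0.49 for 10 (113). The log2 ratio of read shares went from 0.39 and 0.36 at 4 pairs to -0.66 and -0.67 at 10 pairs, in reactions 11 and 12. Stems of at least 6 pairs were lower than those of at most 4 pairs by -0.40 ± 0.03 (SD over 2 reactions, 4181 and 119 members). At 3 pairs (17 members) the relative median was 0.57. The fall held in part at a fixed number of inside pairs, since the inside class with 1 pair went from 0.89 with 2 pairs outside to -0.57 with 8. There the added pairs are outside pairs. At a fixed number of outside pairs the values did not always fall with length. With 3 pairs outside they were 0.71, 0.16 and 0.97 for stems of 5, 6 and 7 pairs (161, 167 and 77 members). With no pair outside they were -0.24, 0.92 and 1.17 for 3, 4 and 5 pairs (4, 7 and 9). With 6 pairs outside they fell, with 0.17, 0.10 and -0.30 for 7, 8 and 9 pairs (421, 534 and 147).

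A fall with added outside pairs was also seen in stems without any bulge or interior loop, of which there were 129, with 6.76% of the reads in input 11. With 1 pair inside, the relative median of these stems was 0.67 with 1 pair outside (7 members), 0.89 with 2 (7), 0.51 with 3 (6), 0.14 with 4 (5), -0.24 with 5 (4), -0.65 with 6 (3) and -1.08 with 7 (2). With the pair of position 15 closing the loop, it went from -0.13 with 3 pairs outside (6) to -0.66 with 6 (4) and -0.95 with 8 (2). By the number of pairs stacked without a break around position 15, the relative median was 0.27 at 3 pairs (1706 members), 0.13 at 4 (1045), 0.02 at 5 (424), -0.10 at 6 (138), -0.41 at 7 (44), -0.60 at 8 (12) and -0.89 at 9 (7). In reads, interrupted stems were below uninterrupted ones by -0.23 ± 0.01 (SD over 2 reactions), but the difference of the medians was 0.14, with the opposite sign. The read share gives abundant hairpins more weight, whereas the median counts each structure once.

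What lay directly beside the A-U pair separated members of the same length. A bulge on the other strand, just outside the partner, had a relative median of 0.80 (138 members, 54 enriched and 6 depleted). A pair stacked directly outside gave 0.20 (3615), a 1-nt bulge on the own strand at position 14 gave -0.01 (194, 10 enriched and 62 depleted), and a 1x1 interior loop gave -0.33 (129, 2 enriched and 58 depleted). Here a 1x1 interior loop is 1 unpaired nucleotide on each strand. The enriched and depleted shares were 39.1% and 4.35% for the other-strand bulge, 5.15% and 32.0% for the 1-nt own-strand bulge. They were 1.55% and 45.0% for the 1x1 loop, and 12.5% and 27.2% over all structures. The counts of enriched members with the other-strand bulge and of depleted ones with the 1x1 loop fell without input 11 or input 12, as over all structures. The relative medians of the bulge stayed between 0.67 and 0.81 and those of the 1x1 loop between -0.39 and -0.25 in the fits that left out 1 library.

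The order was also seen at matched stem lengths, but at matched inside pairs only in part. With the other-strand bulge the relative median was 0.69, 0.64, 0.85, 0.90 and 0.81 for stems of 5, 6, 7, 8 and 9 pairs (5, 27, 47, 43 and 16 members), so it did not fall with length. With a stacked pair it was 0.56, 0.41, 0.26, 0.06 and -0.20 for the same lengths (335, 725, 1001, 902 and 457 members). For the 1x1 interior loop it was below that of the stacked pair at each of these lengths, -0.21, -0.09, -0.09, -0.50 and -0.90 (6, 23, 44, 41 and 15 members). The 1-nt own-strand bulge was below the stacked pair at 6, 8 and 9 pairs, with 0.26, -0.02 and -0.50 (17, 66 and 51 members), and not at 7 pairs, with 0.29 (42). With 1 pair inside, the 1-nt own-strand bulge had -0.18 (135), the 1x1 loop -0.50 (85) and the stacked pair 0.32 (1434). With 2 pairs inside they had 0.10 (49), -0.05 (27) and -0.11 (583). With 3 they had 0.70 (9), 0.58 (4) and 0.55 (119). By medians, the own-strand bulge and the 1x1 loop were thus below the stacked pair with 1 pair inside, and not with 2 or 3. In read shares they were below it with 2 pairs inside also. Their mean log2 ratios over the 2 reactions were -0.23 and -0.25, against -0.13. The other-strand bulge was above the stacked pair in each case, with relative medians of 0.84 (101), 0.47 (30) and 1.14 (6). Own-strand bulges of 2 nt directly outside position 15 had a relative median of 0.04 (46 members), close to that of the 1-nt bulge. Their depleted share was 28.3% and that of the 1-nt bulge 32.0%, near the 27.2% of all structures. Those of 3 and 4 nt had relative medians of 0.35 (49) and 0.42 (42). In read shares over all members, an unpaired nucleotide next to position 15 on its own strand was compared with none (1005 and 3537 members). The first class held bulges and interior loops, and its log2 ratio differed by -0.50 ± 0.004 (SD over 2 reactions). An unpaired nucleotide next to the partner on the other strand only went with a difference of 0.27 ± 0.02 (182 members). By medians over structures these differences were -0.075 and 0.50, so the first was much smaller when each structure counted once. Directly outside position 15, interior loops had log2 ratios of -0.29 and -0.30 in reactions 11 and 12 (547 members). Own-strand bulges there had -0.06 and -0.09 (402).

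Inside the A-U pair, an interruption went with higher medians than a stacked pair, without a match by the number of inside pairs. With a bulge on the other strand directly inside, the relative median was 0.54 (44 members, 16 enriched and 7 depleted), and with an interior loop there it was 0.52 (56, 17 enriched and 0 depleted), against 0.19 for a stacked pair (3145). The enriched and depleted shares were 36.4% and 15.9% for the bulge, 30.4% and 0% for the interior loop. They were 15.5% and 18.2% for the stacked pair, and 12.5% and 27.2% over all structures. No member had an own-strand bulge directly inside, since bulges of 1 nt there were left out by the rule and no larger one occurred. In stems with a single interruption, a 1-nt bulge on the other strand gave 0.84 at 1 step inside (21 members), 1.12 at 2 steps (10) and 0.58 at 1 step outside (29), but -0.08 at 3 steps outside (28) and -0.35 at 5 (10). A 1x1 interior loop gave 0.35 at 1 step inside (27), 0.81 at 2 steps inside (21), -0.33 at 1 step outside (33) and 0.36 at 4 steps outside (32). An interruption at 2 steps inside needs at least 2 inside pairs. Over all members, those with 2, 3 and 4 inside pairs had -0.01, 0.80 and 1.18. The place of an interruption and its kind thus both went with the value.

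The number of paired nonamer letters did not order the members as the number of outside pairs did. The relative median was 0.45 with 2 of the nonamer letters paired (398 members), 0.25 with 3 (1621), 0.07 with 4 (1729), 0.14 with 5 (760), 0.29 with 6 (188) and 0.96 with 7 (27), so both the lowest and the highest numbers of paired letters were above the middle ones. By the place of the uridine that pairs with position 15, the relative median was highest where it lay closest to the 3′ end, with 1.19 at position 29 (22 members, 17 enriched and 0 depleted) and 0.97 at position 30 (5 members, 4 enriched and 0 depleted). It was lowest at position 22, with 0.04 (1532 members, of which 8.55% were enriched and 22.8% depleted, both below the 12.5% and 27.2% of all structures). A partner near the 3′ end leaves room for few pairs outside, so this order is not independent of that by outside pairs. The unpaired 3′ tail showed no steady order, with 0.16 for no tail (2293), 0.20 for 1 nt (1481), 0.38 for 2 nt (585), 0.10 for 3 nt (254) and 0.28 for 4 nt (82).

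The most abundant structures of the neighbourhoods show them in single values. With the other-strand bulge inside, ...........((((((....)).)))).. had 1493 and 1520 normalized reads in the inputs and 2721 and 1864 after m6A-IP. With a 1x1 interior loop inside, ...........((((.((.....)).)))) had 1305 and 1218 in the inputs and 2263 and 1684 after m6A-IP. In both, the m6A-IP values were above both inputs, with log2 fold changes of 0.58 (SE 0.21, limma adjusted p = 0.095) and 0.63 (SE 0.19, limma adjusted p = 0.061). With the other-strand bulge outside, ..........((((((....)).))))... had 2771 and 2805 in the inputs and 4263 and 3050 after m6A-IP, a log2 fold change of 0.37 that did not pass the threshold (SE 0.21, limma adjusted p = 0.217). With the own-strand bulge, ........(((((.((....)))))))... had 3259 and 3268 in the inputs and 1606 and 1345 after m6A-IP, below both inputs. Its log2 fold change was -1.15 (SE 0.16, limma adjusted p = 0.014). With a 2x2 interior loop outside, ........((((..((....))..)))).. had 5217 and 5098 in the inputs and 3923 and 2689 after m6A-IP, also below both inputs, and a log2 fold change of -0.67 (limma adjusted p = 0.074). With a 1x1 loop outside, ........(((((.(........).))))) had 428 and 432 in the inputs and 258 and 208 after m6A-IP, a log2 fold change of -0.88 (limma adjusted p = 0.023). With no interruption and the A-U pair closing a loop of 8 nt, ...........((((........))))... had 5906 and 5773 in the inputs and 4921 and 3923 after m6A-IP, and its log2 fold change of -0.41 did not pass (limma adjusted p = 0.145). The 5 calls among these were lost without input 11 or input 12 (adjusted p from 0.162 to 0.565), and that of the other-strand bulge inside also with a pseudocount of 1 (0.102).

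Among members with a mean of at least 100 normalized reads (1943, of which 748 passed the threshold), the 6 with the largest log2 fold change had 3 or more pairs inside and a loop of 3 nt in all but 1 case. The highest was ............(((((((...))))).)), with 69.0 and 62.6 normalized reads in the inputs and 359 and 312 after m6A-IP, a log2 fold change of 2.26 (SE 0.17). It has the other-strand bulge just outside the partner and 4 pairs inside. Next came ..............((((((...))))))., where position 15 is in the outermost pair and 5 pairs lie inside, with 269 and 304 in the inputs and 1437 and 1282 after m6A-IP, a log2 fold change of 2.23 (SE 0.16). With 1 pair outside and 5 inside, .............(((((((...))))))) had 106 and 118 in the inputs and 548 and 409 after m6A-IP, a log2 fold change of 2.03 (SE 0.20). In each of these hairpins both m6A-IP values were above both inputs. The exception was ............(((..(....)..))).., with 1 pair inside followed by a 2x2 interior loop, whose values were 64.8 and 53.2 in the inputs and 239 and 284 after m6A-IP (log2 fold change 2.06, SE 0.19). The remaining members, .........((...((((...)))).)).. and .........((...((((...))))..))., are alike except for the size of the interior loop outside position 15. They had log2 fold changes of 1.92 and 1.84, and 23 and 21 reads in IP 12. All 6 had a limma adjusted p of 0.014, and they stayed past the threshold in each fit that left out 1 library.

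The 6 members with the smallest log2 fold change had at most 2 pairs inside and between 4 and 6 pairs outside. In ........((((..((....))....)))) the values were 369 and 334 normalized reads in the inputs and 104 and 55.4 after m6A-IP, a log2 fold change of -2.13 (SE 0.30). It has an interior loop beside position 15, as has ........((((..(........)..)))), with 237 and 213 in the inputs and 63.8 and 41.6 after m6A-IP (log2 fold change -2.02, SE 0.24). The stem of .........((((((((.....)))))))) has no interruption, 5 pairs outside and 2 inside, and its values were 760 and 750 in the inputs and 281 and 139 after m6A-IP, a log2 fold change of -1.91 (SE 0.32). The most abundant of the 6, .......(((((.((((....))))))))), had 1674 and 1720 in the inputs and 608 and 381 after m6A-IP, a log2 fold change of -1.81 (SE 0.24), with an own-strand bulge further out and a pair stacked directly outside position 15. In these the m6A-IP values were below both inputs. The others were .(((((.......((((....))))))))) and .......((((((.((....)).)).)))), with log2 fold changes of -1.85 and -1.77. The first of this pair had 4 reads in IP 12 and the second 6. The 2 lowest members of the 6 had 8 and 6 reads there, the uninterrupted stem 20 and the most abundant member 55. The limma adjusted p was between 0.014 and 0.043 for the 6, and they stayed past the threshold in each fit that left out 1 library.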

How the data were processed

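The signal values deposited by the authors are reads per predicted structure divided by a size factor. According to the study's methods and the submitters' processing notes, adaptors were removed with cutadapt 1.9.1, reads of full length with the intact nonamer were folded with RNAfold, identical structures were counted in R 3.4.3, and size factors came from DESeq2 1.18.1. The filter behind the listed structures is not given in the sources used here. The authors' table also holds their own DESeq2 log2 fold change, its standard error and Wald score, and p-value columns, none of which were used or compared.

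The members and classes were chosen with earlier results of these data known. Structures were parsed in Python 3.11.15 with numpy 2.4.6 and pandas 2.3.3. Values plus a pseudocount of 5 were log2 transformed and 2 m6A-IP were compared with 2 input libraries in limma 3.58.1 (R 4.3.3, moderated test with a mean-variance trend, no filter, Benjamini-Hochberg over 36835 structures, threshold 0.1), after the step had been tested on simulated data. Classes of members were compared by their share of recovered reads in each reaction. The structures named are the 5 members with the largest mean, the 6 highest and 6 lowest log2 fold changes past the threshold with a mean of at least 100, the member with the largest mean in each neighbourhood of position 15, and the members of 4 hairpin shapes with members at 3 or more places.

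Equal numbers pair an input and an m6A-IP library, since both came from 1 reaction. Their deviations from the group means had a correlation of 0.015 over all structures and 0.021 over the 11379 with a mean of at least 100. The paired fit is an alternative, because the study compared the groups without a reaction term. The other alternatives were pseudocounts of 1 and 20, library totals, a mean of at least 20, edgeR 4.0.16 and DESeq2 1.42.0 on recovered reads, each library left out, and a looser definition of a 1-nt bulge. For classes they were medians over structures, a filter on low values and removal of the most abundant structure. PCR copies were not marked by molecular identifiers, so depth limits cover counting error only.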

Additional observations from a re-analysis of the deposited data

How the results depend on the processing

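With the reaction as a replicate block, 587 members were enriched (12.4%, against 11.6% of all structures) and 879 depleted (18.6%, against 29.5%). The enriched share was again close to that of all structures. Of the 38 named structures, 9 lost their call, those given with their blocked p beside the values above. No other call of a named structure changed under the block. Leaving out 1 library gave 67 to 1894 enriched and 98 to 2344 depleted members. Without input 11 or input 12 the enriched share of members was below that of all structures, and without either m6A-IP library it was above it. The depleted share of members was below that of all structures in each of these fits. With libraries scaled to their totals 1392 members were enriched, and edgeR's quasi-likelihood test on recovered reads called 2221 enriched. The shares over all structures are given above for both. DESeq2 on these reads called 875 enriched (18.5%, against 13.9% of all structures) and 288 depleted (6.10%, against 12.0%). No member called by limma was called in the opposite direction in these fits. The median of the members above that of all structures was 0.14 with a pseudocount of 20 and 0.23 with edgeR. Under the looser definition of a 1-nt bulge, 622 of 4642 members were enriched (13.4%, against 12.5% of all structures) and 729 depleted (15.7%, against 27.2%).

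When medians over structures replaced read shares, the log2 differences between classes were 0.69 for position 15 in the outermost pair, 0.011 for position 15 closing the loop, which reversed, -0.52 for stems of at least 6 pairs, 0.14 for interrupted stems, which reversed, -0.075 for an own-strand neighbour, 0.50 for an other-strand neighbour and -0.19 for loops of 3 or 4 nt. Without the most abundant structure of each class they were 0.70, -0.15 and -0.21 for the outermost pair, the closing pair and interrupted stems, and -0.48 and -0.38 for the own-strand neighbour and short loops. The cause was not tested.

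Among single structures, the log2 fold change of ............((((....))))...... was 0.016 with library totals, 0.058 with edgeR and 0.040 with DESeq2, and that of .............(((....)))....... ranged from -0.010 to 0.33 when 1 library was left out. Neither had passed the threshold. Of the named structures, 18 lost their call without input 11 and the same number without input 12, where a single input library was assumed to vary like the m6A-IP pair. The low depth of IP 12, with a median of 9 reads per member, limits what can be said of rare structures, and the letters of the randomized flanks were not analysed here.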
